A study of Phanerodontia chrysosporium with 8 samples.

Results

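The 150 gene models described here are the steadiest among the abundant transcripts of Phanerodontia chrysosporium, strain RP-78, across 3 stages of fruiting. They were chosen from the deposited matrix of log2 RPKM, that is log2 of reads scaled to the length of the model and the size of the library. Of 12746 models in the matrix, 1019 had a mean of at least 7 over the 8 libraries, and the 150 of these with the smallest difference between the highest and the lowest library were kept. The values that chose them are those of every library, so their levels and ranges are given as a description, and no test of a stage against another supports their steadiness. The other 869 models with a mean of at least 7 are called the other abundant models.

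Polyadenylated RNA was sequenced from vegetative mycelium (n = 3), young fruiting bodies (n = 2) and fruiting bodies (n = 3). All cultures were of the same strain on cellophane-covered agar with glucose, malt extract, peptone and yeast extract. The protocol, given alike for all samples, kept cultures dark at 37 °C for 7 days. A move to a moist chamber at 25 °C in dim light followed. Young fruiting bodies were compact initials with a sharp border against the mycelium, and fruiting bodies were taken when spores began to fall. Mycelium is the undifferentiated hyphal mat, and whether it was taken before or after the move is not stated, so stage cannot be told apart from temperature and light.

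Phanerodontia chrysosporium is a white-rot basidiomycete, a fungus that breaks down lignin in wood, and it fruits as a flat crust. In fungi, transcripts that hold an even level through development are commonly those of general cell upkeep, such as protein synthesis, energy supply and protein turnover. Such transcripts often serve as a reference against which others are measured. The files pair the protein IDs with no product name, so the models are given by ID and no role is assigned to any of them. Such a level is relative to the other RNA of the library, so an even level is not a fixed amount per cell, and in whole tissue fewer cells of a type and less RNA per cell cannot be told apart.

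Libraries held 16144543 to 35837246 unique reads, and the members had 522 to 77348 total reads per library (median 4378.5). Counting error alone gives a log2 value an SD of 0.06 at 522 reads and 0.02 at the median. All replicate pairs differed by more than sampling noise, with a chi-square per degree of freedom of 308.2 and 321.6 for the pairs that include fruiting body replicate 3 and of 69.2 to 164.3 for the others. That library stands apart from its stage over all models. The median range, the shares called, the variance between stages and the stages left out are given with and without it. The counts of stages without overlap, the directions and intervals of fold changes and the principal components include it. Fruiting body replicate 3 shared a flowcell with fruiting body replicate 1 alone, whereas fruiting body replicate 2 was on the flowcell of mycelium and young fruiting bodies.

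The members' ranges ran from 0.20 to 0.73 on the log2 scale, or 1.15-fold to 1.65-fold between the lowest and the highest library, with a median of 0.58. The median range was 1.45 in the other abundant models and 1.42 over all models of the matrix. Of the members, 4 had a range of at most 0.30, 41 of at most 0.50 and 137 of at most 0.70. Without fruiting body replicate 3 the median range was 0.55 in the members and 1.38 in the other abundant models. Just inside the limit lay models 2912462, 2985877 and 3012500, at 0.72, 0.73 and 0.73. Just outside it lay models 133657, 3029445 and 6925, each at 0.73. The limit therefore falls in an unbroken run of ranges and marks no gap.

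**Figure D1:**
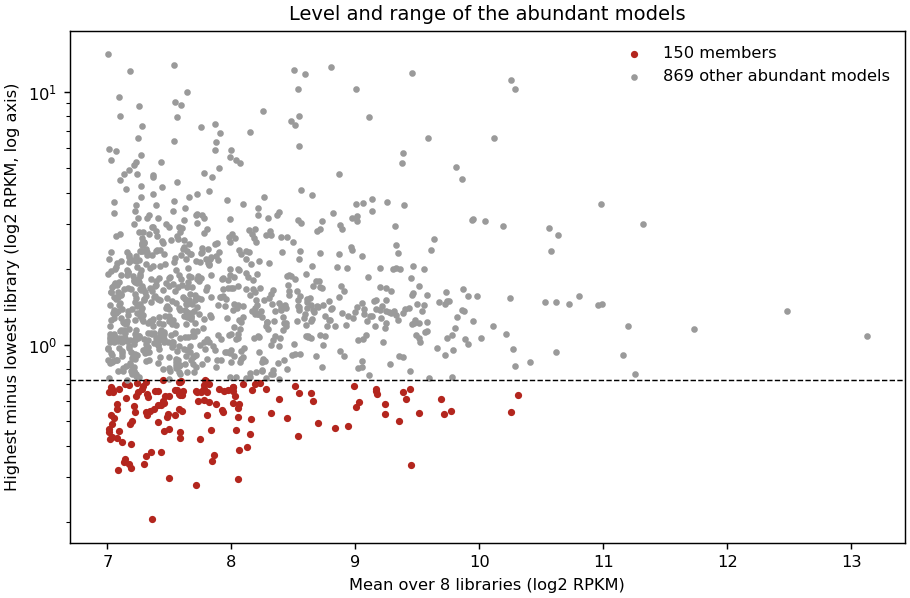
Mean over the 8 libraries (x axis, log2 RPKM) and highest minus lowest library (y axis, log2 RPKM on a log axis) of 1019 abundant models, with the 150 members in red, the 869 other abundant models in grey and the widest member range, 0.73, as a dashed line. Members occur from a mean of 7.01 to 10.31, with none among the most abundant models, which reach 13.12.

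Model 3003192 (1176 bp) had the narrowest range, 0.20. Its deposited values were 7.40, 7.39 and 7.40 in mycelium, 7.46 and 7.27 in young fruiting bodies and 7.26, 7.29 and 7.42 in fruiting bodies. The stages overlapped, and its highest and lowest library differed 1.15-fold. In linear RPKM mycelium averaged 169 ± 1.09, young fruiting bodies 165 ± 16.0 and fruiting bodies 160 ± 9.25 (SD, n = 3, 2 and 3).

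Model 3014255 (1118 bp, range 0.28) stood at 7.80, 7.76 and 7.65 in mycelium, 7.84 and 7.61 in young fruiting bodies and 7.81, 7.73 and 7.56 in fruiting bodies. Model 3026712 (729 bp, range 0.30) stood at 7.91, 8.18 and 7.97 in mycelium, 8.10 and 7.88 in young fruiting bodies and 8.15, 8.14 and 8.12 in fruiting bodies. In model 3014255 every stage overlapped every other, and in model 3026712 the 3 fruiting bodies lay just above both young fruiting bodies and inside the span of mycelium. For model 2970768 (534 bp, range 0.30) the values were 7.38, 7.65 and 7.49 in mycelium, 7.39 and 7.43 in young fruiting bodies, and 7.67, 7.57 and 7.40 in fruiting bodies. For model 2919593 (600 bp, range 0.32) they were 7.20, 6.92 and 6.98 in mycelium, 7.25 and 6.94 in young fruiting bodies, and 7.24, 7.10 and 7.06 in fruiting bodies. The young fruiting bodies lay inside the span of mycelium in the first of these, and replicate 1 alone lay above it in the second.

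The next 3 models by range were 2920253 (996 bp), 2886059 (519 bp) and 3042149 (1434 bp). Values of 2920253 were 7.17, 7.12 and 7.07 in mycelium, 7.39 and 7.10 in young fruiting bodies and 7.26, 7.34 and 7.10 in fruiting bodies. Values of 2886059, the only model among both the 10 steadiest and the 8 most abundant members, were 9.33, 9.52 and 9.39 in mycelium, 9.40 and 9.48 in young fruiting bodies and 9.43, 9.38 and 9.66 in fruiting bodies. Fruiting body replicate 3 was its highest library, and without it the other 7 lay between 9.33 and 9.52. Model 3042149 had 7.09, 7.43 and 7.21 in mycelium, 7.35 and 7.35 in young fruiting bodies and 7.37, 7.43 and 7.11 in fruiting bodies. Here the mycelium libraries alone span nearly the whole range of 0.34.

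The last of the 10 steadiest were models 2912400 (1830 bp) and 3031183 (1509 bp), each with a range of 0.34. Model 2912400 had 7.24, 7.26 and 7.24 in mycelium, 7.34 and 7.16 in young fruiting bodies, and 7.14, 7.05 and 7.00 in fruiting bodies. All 3 of its fruiting body libraries lay below all mycelium libraries, while its young fruiting bodies lay on either side of mycelium. Model 3031183 had 6.94, 7.09 and 7.28 in mycelium, 7.13 and 7.25 in young fruiting bodies, and 7.12, 7.17 and 7.09 in fruiting bodies, and both fruiting stages lay within the span of mycelium.

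**Figure D2:**
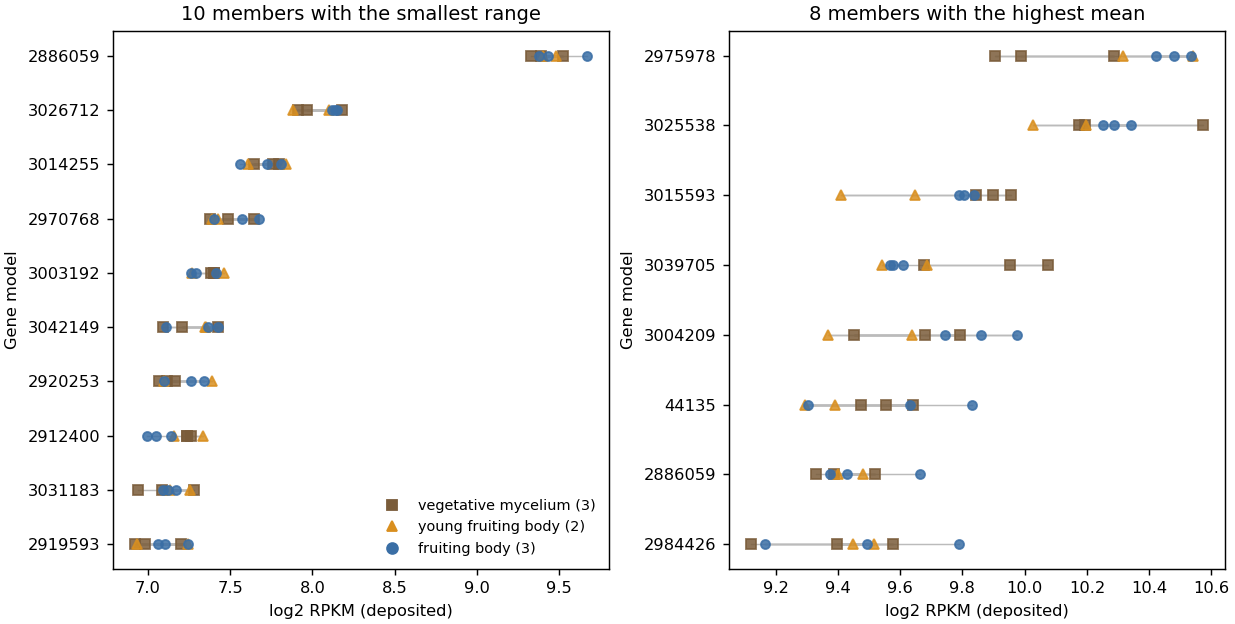
Deposited log2 RPKM (x axis) of each library for the 10 members with the smallest range (left) and the 8 with the highest mean (right), 1 gene model per line, with squares for mycelium, triangles for young fruiting bodies and circles for fruiting bodies. Model 3003192 spans 0.20, and model 2975978, the most abundant member, spans 0.64 with its fruiting bodies above its mycelium libraries.

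The most abundant members reached means of 9.44 to 10.31. Model 2975978 (1081 bp) had a mean of 10.31, with 9.99, 10.29 and 9.90 in mycelium, 10.54 and 10.31 in young fruiting bodies and 10.53, 10.48 and 10.42 in fruiting bodies. Every fruiting body and young fruiting body library lay above every mycelium library, and its range of 0.64 is among the wider ones. In linear RPKM mycelium averaged 1075 ± 154, young fruiting bodies 1381 ± 152 and fruiting bodies 1427 ± 55.8 (SD, n = 3, 2 and 3). Its fitted log2 fold change between fruiting bodies and mycelium was 0.41, with a 95% interval of -0.16 to 0.97 (edgeR).

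Model 3025538 (1518 bp) had 10.18, 10.57 and 10.19 in mycelium, 10.03 and 10.20 in young fruiting bodies, and 10.34, 10.29 and 10.25 in fruiting bodies. Model 3015593 (1099 bp) had 9.84, 9.96 and 9.90 in mycelium, 9.41 and 9.65 in young fruiting bodies, and 9.79, 9.80 and 9.84 in fruiting bodies. Model 3039705 (541 bp) had 9.68, 10.08 and 9.95 in mycelium, 9.69 and 9.54 in young fruiting bodies, and 9.57, 9.58 and 9.61 in fruiting bodies. In model 3015593 both young fruiting bodies lay below all other libraries, and in model 3039705 all fruiting bodies lay below all mycelium libraries. In model 3025538 the fruiting bodies lay above both young fruiting bodies and inside the span of mycelium, and the SD was 0.05 in fruiting bodies and 0.22 in mycelium (n = 3 each).

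Model 3004209 (549 bp) was at 9.68, 9.79 and 9.45 in mycelium, 9.64 and 9.37 in young fruiting bodies and 9.98, 9.86 and 9.75 in fruiting bodies. Model 44135 (414 bp) was at 9.55, 9.64 and 9.47 in mycelium, 9.39 and 9.29 in young fruiting bodies and 9.63, 9.30 and 9.83 in fruiting bodies. Model 2984426 (627 bp) was at 9.12, 9.58 and 9.40 in mycelium, 9.51 and 9.45 in young fruiting bodies and 9.49, 9.16 and 9.79 in fruiting bodies. Fruiting body replicate 3 was the highest library of models 44135 and 2984426, as it was of 2886059, while replicate 2 lay at or near the low end in all 3.

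A level just above 7 marked the lower limit. Just inside it were models 2974681, 2895443 and 3027065, each with a mean of 7.01. Models 3001762, 1302730 and 2989705, each with a mean of 6.99 and ranges of 0.71, 0.72 and 0.63, were left out by level alone. The members were 150 of the 1019 models at or above it (14.7%), and below it 1581 of 11727 models (13.5%) had a range no wider than the widest member. These shares differ by little, but the second pools unlike levels: at a mean of 4 to 7 it was 19.6% (1232 of 6270). The differences were not tested.

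Within the abundant models, the share that were members was 16.6% at a mean of 7 to 8 (101 of 608), 12.4% at 8 to 9 (31 of 251), 12.5% at 9 to 10 (16 of 128) and 6.25% at 10 or more (2 of 32). The members' mean levels had a median of 7.61, against 7.77 in the other abundant models.

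Model length was not used by the rule beyond the division by length. The median length was 916.5 bp in the members and 925 bp in the other abundant models, and 1221 bp over all models of the matrix. Quartiles were 588.8 and 1322 bp in the members and 570.0 and 1428 bp in the other abundant models. Among models under 500 bp 11.2% were members (22 of 197), from 500 to 1000 bp 16.9% (61 of 361), from 1000 to 2000 bp 15.6% (59 of 377), and from 2000 bp upwards 9.52% (8 of 84). These are descriptions without a test.

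The shortest members were 2916818 (219 bp), 3006959 (246 bp) and 2896519 (252 bp). Model 2916818 had 7.53, 7.56 and 7.37 in mycelium, 7.55 and 7.62 in young fruiting bodies and 7.27, 7.60 and 7.16 in fruiting bodies, from as few as 552 reads in a library. Model 3006959 had 7.96, 7.89 and 7.60 in mycelium, 7.43 and 7.62 in young fruiting bodies and 7.67, 7.62 and 8.02 in fruiting bodies. Model 2896519 had 6.98, 7.62 and 7.39 in mycelium, 7.15 and 7.29 in young fruiting bodies and 7.25, 7.42 and 7.42 in fruiting bodies. The stages of all 3 overlapped, and in the last the mycelium replicates alone span the whole range of 0.64.

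The longest members were 2987441 (5508 bp), 2917215 (3759 bp) and 2952528 (2877 bp). Model 2987441 had 6.75, 7.15 and 7.04 in mycelium, 7.23 and 7.20 in young fruiting bodies, and 7.19, 7.31 and 6.77 in fruiting bodies. Its low libraries were mycelium replicate 1 and fruiting body replicate 3, and it was the only member among the 150 longest models of the matrix. Model 2917215 had 7.79, 8.00 and 7.77 in mycelium, 7.76 and 8.10 in young fruiting bodies, and 7.64, 7.85 and 7.75 in fruiting bodies. Model 2952528 had 7.00, 7.57 and 7.27 in mycelium, 7.08 and 7.07 in young fruiting bodies, and 7.22, 7.24 and 7.25 in fruiting bodies. In this last model mycelium replicates 1 and 2 were the lowest and the highest library, while the fruiting bodies lay close together.

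Most members took their reads at places that no other model shares. In 130 of 150 members (86.7%) every read was unique, as in 86.8% of the other abundant models, and 3 members (2.00%) had over 1% of reads that were not, against 3.57% of the other abundant models. Models 2898233 and 2898594, each 447 bp, had no unique read in any library. Their total reads were nevertheless close to each other in each library. Model 2898233 had 1865, 4607 and 2786 in mycelium, 3344 and 2415 in young fruiting bodies and 2328, 3099 and 2527 in fruiting bodies. Model 2898594 had 1891, 4689 and 2789 in mycelium, 3234 and 2416 in young fruiting bodies and 2434, 3179 and 2440 in fruiting bodies. Their levels, a mean of 8.15 for both, rest on how the authors' counting divided shared reads, and neither can be taken as the level of 1 gene. The third model, 2603544 (627 bp), had 3.21% of reads that were not unique and values of 7.59, 8.15 and 7.91 in mycelium, 8.06 and 8.06 in young fruiting bodies and 8.27, 8.14 and 7.90 in fruiting bodies.

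How the remaining variation fell on the libraries was described next. Fruiting body replicate 1 was the highest library for 39 members and the lowest for 9, and mycelium replicate 1 was the lowest for 38 and the highest for 14. Mycelium replicate 2 was the highest for 27 and the lowest for 6. How often replicates of mycelium lay at opposite ends of the same member was not counted. Young fruiting body replicate 1 was the highest for 28 and young fruiting body replicate 2 the lowest for 28. Fruiting body replicate 3 was the highest for 24 and the lowest for 11.

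The median deviation of the members from their own mean was -0.07, 0.09 and -0.07 in mycelium, 0.06 and -0.10 in young fruiting bodies and 0.09, 0.02 and 0.03 in fruiting bodies. In the other abundant models it was -0.30, -0.18 and -0.21 in mycelium, 0.19 and 0.12 in young fruiting bodies and 0.36, 0.19 and -0.01 in fruiting bodies. All mycelium libraries lay below 0 in the other abundant models. Medians over members that go both ways do not show the pattern within them. The first principal component of the members' deviations held 35.7% of their variance and set all mycelium libraries (loadings of 0.32 to 0.52) apart from both young fruiting bodies and fruiting body replicates 1 and 2 (-0.49 to -0.12), with replicate 3 at 0.03. In the other abundant models the first component held 82.5%, with mycelium at one end too. In the median member 34.5% of the variance over the 8 libraries lay between stages, against 72.2% in the other abundant models and 57.3% over all models. Without fruiting body replicate 3 these shares were 44.9%, 83.2% and 74.6%. With so few libraries, part of the variance falls between stages even where values are unrelated to stage. The members' share is therefore not the size of a stage effect. The pooled SD within a stage had a median of 0.18 in the members and 0.31 in the other abundant models.

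**Figure D3:**
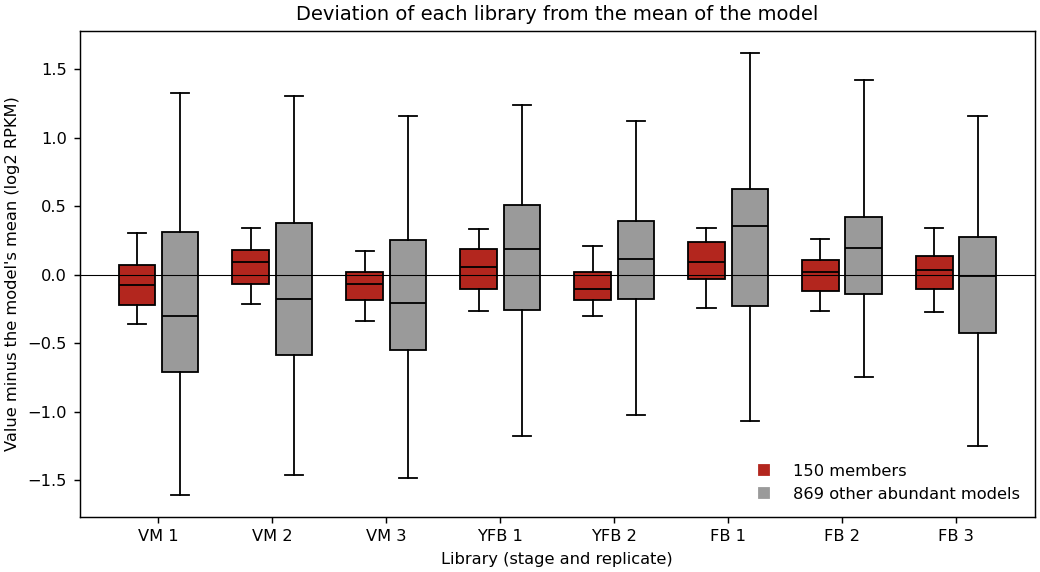
Deposited log2 RPKM minus the model's own mean (y axis) in each library (x axis; VM, vegetative mycelium; YFB, young fruiting body; FB, fruiting body) for the 150 members (red) and the 869 other abundant models (grey). Boxes show the median and quartiles and whiskers the 5th and 95th percentiles; the medians of the members lie between -0.10 and 0.09, and those of the other abundant models between -0.30 and 0.36.

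Stages without overlap between libraries occurred among the members too. In 39 members (26.0%) the fruiting body and mycelium libraries did not overlap, 25 higher and 14 lower in fruiting bodies, against 63.3% of the other abundant models and 46.4% of all models in the matrix. Young fruiting bodies and mycelium did not overlap in 42 members (28.0%), 22 higher and 20 lower in young fruiting bodies, against 73.5% of the other abundant models and 61.9% of all models. Between fruiting bodies and young fruiting bodies the libraries of 33 members (22.0%) did not overlap, 23 higher and 10 lower in fruiting bodies, against 19.2% of the other abundant models and 20.0% of all models, a share near the background. In the fit of all models described next, the share called was 31.8% for fruiting bodies against mycelium, 26.0% for young fruiting bodies against mycelium and 0% for fruiting bodies against young fruiting bodies.

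Of the 150 members, 148 entered the edgeR quasi-likelihood fit of unique reads over 12510 models, since the pair without unique reads did not pass the filter. The rule had used the values of the same libraries, so the counts below describe the choice and nothing is read from them. In young fruiting bodies against mycelium 1 member was called (Benjamini-Hochberg adjusted p below 0.05), where 26.0% of all models were. In fruiting bodies against mycelium 0 members were called, where 31.8% of all models were. No model, member or not, was called in fruiting bodies against young fruiting bodies (0%), where 987 had an unadjusted p below 0.05, DESeq2 called 242 and limma-voom 1. Across the 3 stages together 0 members were called, where 28.7% of all models were. An unadjusted p below 0.05 was reached by 4 members in young fruiting bodies against mycelium, where 40.1% of all models reached it, and by 6 in fruiting bodies against mycelium, where 43.3% did. It was reached by 1 member in fruiting bodies against young fruiting bodies, where 7.89% of all models did, and by 3 across the stages, where 42.1% did. DESeq2 called 3 members in young fruiting bodies against mycelium, 4 in fruiting bodies against mycelium, 0 in fruiting bodies against young fruiting bodies and 5 across the stages, where it called 34.0%, 38.0%, 1.94% and 39.6% of all models. Limma-voom called 1 member in each fruiting stage against mycelium, where it called 3365 and 4003 of 12510 models for the younger and the later stage, and 0 members in the others.

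The shares called over all models moved with single libraries. In young fruiting bodies against mycelium the share was 41.2% without fruiting body replicate 3 and 8.37% without young fruiting body replicate 1, and it also moved by over 1.5 times without young fruiting body replicate 2 or any mycelium library. In fruiting bodies against mycelium it was 48.9% without fruiting body replicate 3, and it was lower by over 1.5 times without any other library of these stages, down to 19.6%. With the flowcell as a covariate it was 9.94%. Across the stages it was 47.6% without fruiting body replicate 3, and it was lower by over 1.5 times without any mycelium library, down to 15.5%. Without fruiting body replicate 3 the members called were 1 in each fruiting stage against mycelium and 0 across the stages. In fruiting bodies against young fruiting bodies 81 models were called without fruiting body replicate 3 and 64 on the shared flowcell alone, with 0 members among them in both cases.

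The called member was model 2970860 (723 bp). It had 7.60 and 7.73 in young fruiting bodies, against 7.16, 7.18 and 7.07 in mycelium, and 7.48, 7.41 and 7.47 in fruiting bodies. All young fruiting bodies lay above all fruiting bodies, and these above all mycelium libraries. In linear RPKM it averaged 203 ± 12.5 in young fruiting bodies and 141 ± 5.72 in mycelium (SD, n = 2 and 3). The fitted log2 fold change between young fruiting bodies and mycelium was 0.53 ± 0.16 (SE, adjusted p = 0.0455, edgeR). The call was kept in 6 of 19 alternatives and lost without any 1 of 7 libraries, fruiting body replicate 3 being the exception. Its adjusted p ranged from 0.00783 to 0.180, while the log2 fold change stayed between 0.48 and 0.59.

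Members with the lowest p in fruiting bodies against mycelium, named after their values were seen, were 2973481 and 3030825. Model 2973481 (1216 bp) had 8.18, 8.03 and 8.25 in fruiting bodies, against 7.65, 7.69 and 7.57 in mycelium, with 8.06 and 7.79 in young fruiting bodies. Model 3030825 (456 bp) had 7.57, 7.44 and 7.55 in fruiting bodies, against 8.10, 7.98 and 7.86 in mycelium, with 7.86 and 8.06 in young fruiting bodies. Fruiting bodies were apart from mycelium in both, and in model 3030825 also from young fruiting bodies. Neither passed the threshold, with fitted log2 fold changes against mycelium of 0.51 ± 0.18 and -0.46 ± 0.16 (SE, adjusted p = 0.0623 and 0.0519, edgeR). Over the alternatives the adjusted p ranged from 0.0152 to 0.389 for the first and from 0.0107 to 0.207 for the second.

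A p above the threshold does not show that levels were alike. The intervals of the fold changes are given for their size only, since a range of at most 0.73 over the same libraries all but fixes where they lie. The 95% interval lay within a 2-fold change either way in 147 of 148 members for young fruiting bodies against mycelium, and in 148 for both other comparisons. The exception was model 2988081, with an interval of -1.05 to 0.06 for young fruiting bodies against mycelium. Since the fit draws each model's dispersion towards that of other models of like abundance, intervals of the members are wider than their own spread alone would give: the steadiest, model 3003192, had -0.45 to 0.30 for fruiting bodies against mycelium.

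The members' fitted log2 fold changes ran from -0.52 to 0.53 for young fruiting bodies against mycelium, with 79 above 0 and 69 below. For fruiting bodies against mycelium they ran from -0.46 to 0.51, with 92 above 0 and 56 below. For fruiting bodies against young fruiting bodies they ran from -0.44 to 0.42, with 92 above 0 and 56 below. Of the 12510 models tested, 6221, 6540 and 6842 lay above 0 in these comparisons, in the same order. The members' medians were 0.02, 0.08 and 0.06, beside 0.00, 0.05 and 0.04 over all models tested. These comparisons share libraries with each other, so they are not independent.

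**Figure D4:**
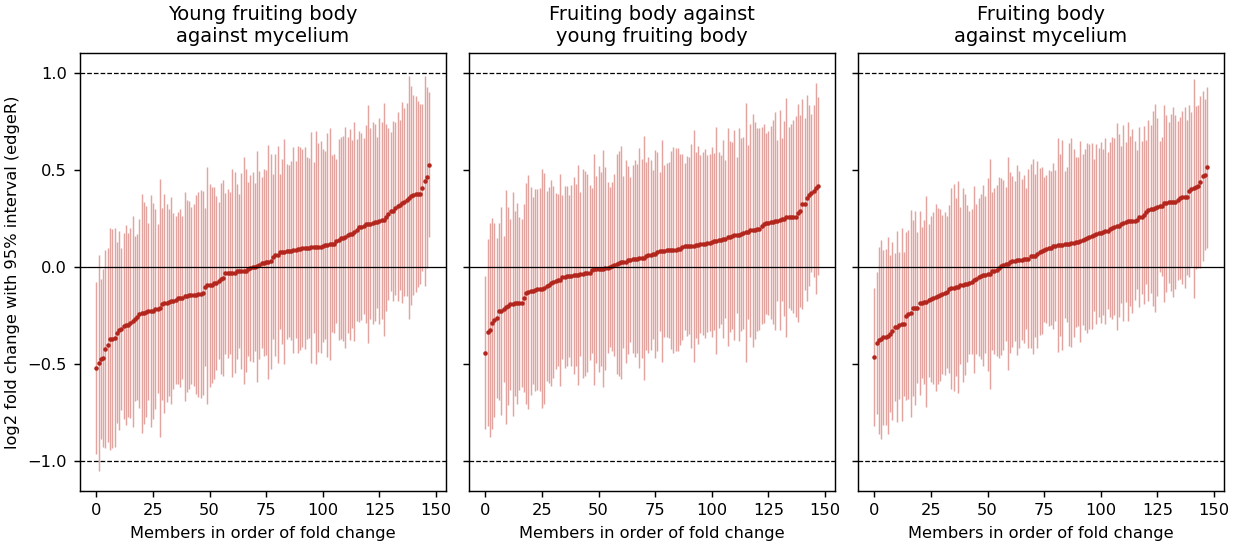
Fitted log2 fold change (points) with its 95% interval (bars, edgeR) of the 148 members tested, in ascending order within each comparison (x axis), with dashed lines at a 2-fold change. The points lie between -0.52 and 0.53, and 1 interval, of model 2988081 in the left panel, crosses a dashed line.

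To describe values in a library not used for the choice, the same rule was applied with 1 library left out. The left-out library was compared with the mean of the other 7. Of the 150 models so chosen, 85.3 to 98.7% lay within 0.50 on the log2 scale, or 1.41-fold, of that mean in the library left out. Among the other abundant models of the same choice 37.2 to 64.5% did. The fewest, 128 of 150, were found for fruiting body replicate 3 and the most, 148, for fruiting body replicate 2. For mycelium replicates 1, 2 and 3 the numbers were 133, 136 and 141, for young fruiting bodies 133 and 136, and for fruiting body replicate 1 141. Within a 2-fold change lay 148 to 150 of the 150 in each library. These choices shared 125 to 143 models with the members. Replicates of the same stage stayed in each choice, and all 8 libraries had been scaled together. The other abundant models, here and with a stage left out, are those that the rule passed over for a wider range. A lower share among them follows in large part from the rule, so the shares are a description and no test of steadiness.

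A whole stage was then left out in the same way. With young fruiting bodies left out, 144 of 150 models (96.0%) chosen on the other stages lay within 0.50 in the mean of the young fruiting bodies, against 54.7% of the other abundant models. With fruiting bodies left out, 136 of 150 (90.7%) did in the mean of the fruiting bodies, against 53.4%. With mycelium left out, 86 of 150 (57.3%) did in the mean of mycelium, against 35.0%. Of these 150 models 103 were lower in mycelium and 47 higher. Their median deviation in mycelium was -0.34, beside -0.58 in the other abundant models of that choice, so the tilt is not particular to the chosen. Directions were not counted in the other abundant models, here or in the alternative below. Here the mean of at least 7 was taken over the fruiting libraries alone, which favours models that are lower in mycelium. With that mean taken over all 8 libraries, an alternative added after seeing the data, 88 of 150 (58.7%) lay within 0.50 in mycelium, against 38.6% of the other abundant models, and 96 were lower and 54 higher. The same alternative gave 145 (96.7%) for young fruiting bodies and 136 (90.7%) for fruiting bodies. With the mean taken over the libraries used, the choices held 61 members without mycelium, 100 without fruiting bodies and 114 without young fruiting bodies. Leaving out a fruiting stage keeps the other fruiting stage in the choice, and these stages lay near each other. Over all models the median absolute difference of stage means was 0.23 between them. Against mycelium it was 0.58 for young fruiting bodies and 0.57 for fruiting bodies. The shares for the fruiting stages are therefore not readings in an unlike stage.

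Without fruiting body replicate 3 throughout, the shares were 93.3% (140 of 150) for young fruiting bodies, 88.0% (132) for fruiting bodies and 48.7% (73) for mycelium, against 52.7%, 43.5% and 31.4% of the other abundant models. The 5 libraries of both fruiting stages share chamber conditions that mycelium may not share, and the part of those conditions in this difference was not tested. The differences between stages left out were not tested either.

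**Figure D5:**
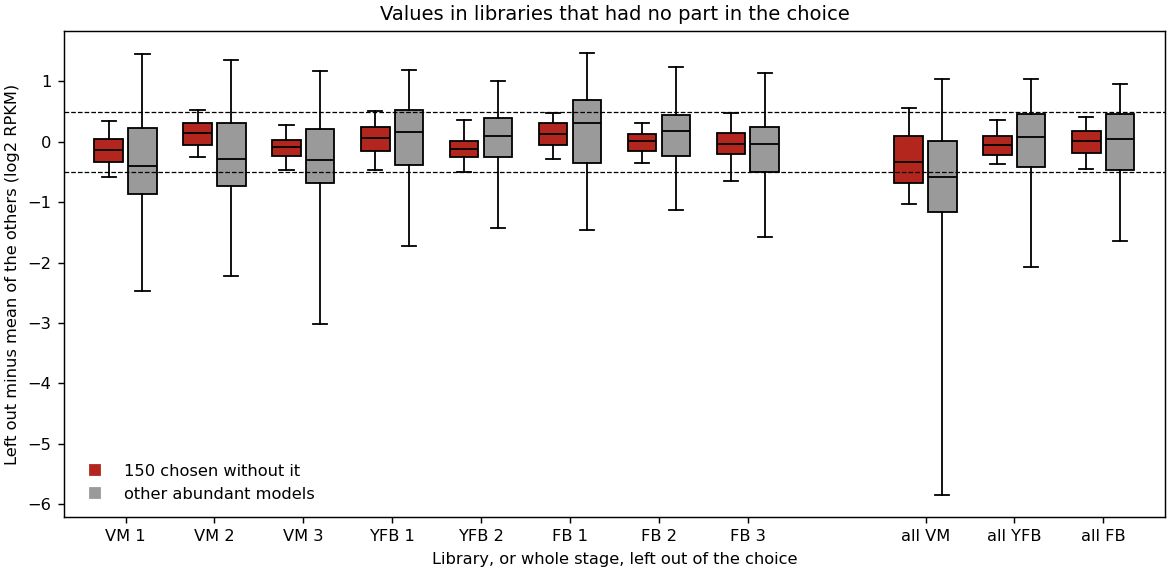
Value in the library or stage left out minus the mean of the libraries used for the choice (y axis, log2 RPKM), for the 150 models chosen without it (red) and the other abundant models of that choice (grey), by what was left out (x axis; VM, vegetative mycelium; YFB, young fruiting body; FB, fruiting body). Boxes show the median and quartiles, whiskers the 5th and 95th percentiles and dashed lines 0.50 either way; the box for mycelium left out is the widest of the red boxes, with a median of -0.34.

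All members together held a share of unique reads that averaged 3.84 ± 0.19% for mycelium, 4.04 ± 0.06% for young fruiting bodies and 4.10 ± 0.38% for fruiting bodies (SD, n = 3, 2 and 3). By library the share was 3.62, 3.94 and 3.94% in mycelium, 4.08 and 4.0% in young fruiting bodies and 3.84, 3.92 and 4.54% in fruiting bodies. Fruiting body replicate 3 was the highest. Without it the fruiting bodies lay within the span of mycelium and below both young fruiting bodies. With library sizes scaled by TMM, which sets libraries to a common level over most models, the shares were 3.79, 4.24 and 3.80% in mycelium, 4.02 and 3.84% in young fruiting bodies and 4.14, 4.0 and 4.0% in fruiting bodies, and replicate 3 no longer stood out.

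The deposited matrix carries this scaling, and the members were chosen on the scaled values. The constant is the same for every model of a library and was -0.181 (log2) in fruiting body replicate 3. Values without it therefore shift by library, whichever models are read. The shifts below were taken over the members only, so they show no trait of the members. In the deposited TPM, which have no such factor, the median deviation of the members from their own mean was 0.22 in that library and 132 of 150 lay above their own mean there, against 82 of 150 in the matrix. In mycelium replicate 1 the median deviation in TPM was -0.17, with 33 of 150 above, against 51 in the matrix. Choosing by TPM kept 104 of the 150 members.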

How the data were processed

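Libraries were made from polyadenylated RNA with a TruSeq RNA v2 kit, per the labels' protocols. That kit does not mark strand, so overlapping antisense models cannot be told apart. The authors deposited counts of unique and total gene reads and TPM values per model and library, per the file headers; their RPKM column, 0 throughout, was not used. The series matrix the authors deposited holds log2 RPKM. These follow total reads per length and library size, and the constant of each library differed from its TMM factor by at most 0.000923 (log2), so they were read as TMM-scaled. Limma 3.18.13, edgeR 3.4.2 and R 3.0.2 were used, per the submitters' processing notes, without a role given. The aligner and genome release are not given in the sources used here.

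Unique reads were tested in R 4.3.3 with edgeR 4.0.16 (filterByExpr by stage, TMM, robust quasi-likelihood fit, all 8 libraries, stage as the only term, Benjamini-Hochberg over 12510 models), after a test on simulated data. The 95% intervals used the t distribution of that fit, with the SE taken as the log2 fold change over the square root of F. Alternatives were DESeq2 1.42.0, limma 3.58.1 (voom, and trend on the deposited log2 values), other scalings, filters and reads, a replicate block, the flowcell and each library left out. Counting errors cover counting only. Nothing states that replicates of a stage came from separate cultures, so a p-value here measures only how these samples spread, which may be technical.

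The members, and the rule for named models, were chosen with earlier results of these data known. Named were the 10 members with the smallest range, the 8 most abundant, the 3 longest and shortest, those without unique reads, those called and the 3 on either side of each limit; others are said to be chosen after their values were seen. The planned lists by product name need product names, which no file gives, and were not used.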

Additional observations from a re-analysis of the deposited data

Results flagged for a closer look

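Models 2898233 and 2898594 gave a signal in reads that the tests of unique reads do not use. They had 22971 and 23072 total gene reads over the 8 libraries, with 0 unique reads. Both are members through the deposited matrix, which rests on total gene reads.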

How the results depend on the processing

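Of the 150 members, 51 were kept with a mean of at least 6, where 2496 models compete for 150 places, 49 with a mean of at least 8, which only 49 members reach, and 61 without mycelium. Under the other scalings, reads and measures 102 to 150 were kept, the lowest with the difference of stage means in place of the range, and 125 to 143 with 1 library left out. The median range of 0.58 became 0.46 without mycelium and 0.46 without fruiting bodies, where fewer libraries are spanned, and for the models chosen with a mean of at least 6 and 8 it became 0.45 and 0.86. The choice by deposited TPM was added after seeing the data, as were the stages left out without fruiting body replicate 3 or with the mean limit over all 8 libraries.

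In young fruiting body against mycelium the 1 member called became 3 with DESeq2 and 0 with limma-trend, upper-quartile factors, the flowcell as a covariate, the shared flowcell alone and only the 2 stages compared, and 0 to 1 with a library left out. With the replicate block 0 members were called in every comparison. Libraries with the same number correlated at -0.278 to 0.196 in their deviations from stage means. With so few libraries per stage these deviations are tied to each other. They cannot decide whether a number marks a shared culture or batch. In fruiting body against mycelium 0 became 4 with DESeq2 and 1 each with limma-voom, limma-trend, upper-quartile factors and a mean of at least 1 RPKM, and 0 to 1 with a library left out, the 1 being without fruiting body replicate 3. Across the 3 stages 0 became 5 with DESeq2. The cause of these shifts was not tested.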

Other observations

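Among models with a mean of 4 to 7 in the deposited matrix, 1232 of 6270 (19.6%) had a range no wider than that of the widest member. At a mean of at least 7 the share was 14.7% (150 of 1019), where the rule fixed the number at 150. The difference was not tested.

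Some models that were steady in the libraries used for a choice departed most in what was left out, and are named for that after their values were seen. Model 3027746 (1101 bp) stood at 7.75 and 7.75 in young fruiting bodies and 7.69, 7.74 and 7.57 in fruiting bodies, against 4.32, 3.80 and 3.45 in mycelium. Model 2984401 (1547 bp) stood at 8.33 in young fruiting body replicate 2, and at 6.67 to 7.33 in the other 7 libraries. Model 2967987 (597 bp) stood at 6.80 in mycelium replicate 2, and at 7.74 to 8.34 in the other 7. Model 7021 (594 bp) stood at 7.93 in fruiting body replicate 3, against 8.62 to 9.26 in the other 7. The last 3 show single libraries apart from their own stage.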
